A study of Mus musculus with 10 samples.

Results

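The teneurins (Tenm1 to Tenm4), the latrophilins (Adgrl1 to Adgrl3) and the FLRT genes (Flrt1 to Flrt3) form a system of adhesion proteins that bind each other between neighbouring cells. These 10 genes were found by name among the 29268 genes of the uterus table. The set was chosen by its function with the comparison of HSD17B1TG with WT already known, so the fold changes and calls of the 10 genes are given as a description, without p-values. RNA-seq was done on the uterus of 5 HSD17B1TG and 5 WT female mice at the age of 4 months, 1 library per mouse. HSD17B1TG mice are heterozygous FVB/N mice that carry the human HSD17B1 cDNA, which encodes an enzyme that makes estradiol from estrone, under a CMV-enhanced chicken beta actin promoter active in all tissues. HSD17B1TG females do not cycle, and for histology the study took WT uteri at random cycle phases. The cycle phase of the WT mice sequenced is not given in the sources used here. The mice are numbered in the order of their records, as TG1 to TG5 for HSD17B1TG and as WT1 to WT5 for WT.

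Teneurins are large transmembrane proteins with a chain of EGF-like repeats and a barrel-shaped outer part. Latrophilins are adhesion G protein-coupled receptors that bind the outer part of a teneurin and, with another domain, the leucine-rich repeats of an FLRT protein. FLRT proteins also bind UNC5 netrin receptors and FGF receptors. The system is best known from the nervous system, where it guides axons and matches synapses.

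The libraries held 14817228 to 23271988 counts. A count of 3, taken as the limit of detection for counting error only, was 0.202 CPM in the mouse with the lowest total. The sum of 10 smooth muscle markers was 7427 FPKM in TG1 against 879 to 3126 in the other HSD17B1TG mice, and 5831 in WT4 against 425 to 2091 in the other WT mice. TG1 and WT4 therefore stood apart from their groups, and results that turn on them are given without them. The tissue label was checked on Esr1 (33.9 ± 4.83 FPKM in HSD17B1TG and 34.9 ± 6.50 in WT, SD, n = 5), Pgr, Hoxa10, Hoxa11, Hand2 and Msx1, all detected in every mouse. The transgene is human and is not counted in a table of mouse genes, so the genotype was not checked on it.

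A promoter of Tenm3 and 1 of the 2 of Tenm4 are shown because Tenm3 was the teneurin that set the groups apart and Tenm4 the one that made up most of the family in HSD17B1TG. They are the 250 bases before a RefSeq start in GRCm38.p6, at chr8:48674691-48674940 on the minus strand and chr7:96170994-96171243 on the plus strand, written 5′ to 3′ with the cyclic AMP response element TGACGTCA in capitals.
Tenm3: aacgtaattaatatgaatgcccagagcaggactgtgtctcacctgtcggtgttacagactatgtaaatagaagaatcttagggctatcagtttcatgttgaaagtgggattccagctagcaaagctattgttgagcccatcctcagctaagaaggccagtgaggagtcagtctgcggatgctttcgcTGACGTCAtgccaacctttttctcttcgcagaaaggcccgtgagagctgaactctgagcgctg
Tenm4: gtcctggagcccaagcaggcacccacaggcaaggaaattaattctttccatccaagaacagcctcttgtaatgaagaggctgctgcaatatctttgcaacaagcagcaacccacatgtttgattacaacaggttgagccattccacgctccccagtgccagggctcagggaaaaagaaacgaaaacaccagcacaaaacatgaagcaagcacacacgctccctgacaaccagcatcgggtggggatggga
The response element lay 63 to 56 bases before the Tenm3 start, and 1.55% of 32851 RefSeq promoter windows held it on either strand. None of the 12 windows found for 9 of the 10 genes held a full estrogen response element, which 0.0639% of all windows held, or a full glucocorticoid or progesterone response element, which 0.387% held. The short estrogen site GGTCA, which 35.2% of all windows held, was in the Tenm1 window alone among the 12. The E-box CANNTG was in 8 of the 12 windows and in 66.2% of all. These are matches of letters and were not tested for binding. Tenm4 has a second RefSeq start, 40425 bases into the gene, whose window is not shown. The RefSeq start of Tenm3 lies 169261 bases inside the longer gene model that was counted (chromosome 8, 48227682 to 48843951, minus strand), and those of Tenm1 and Tenm2 lie 154342 and 291723 bases inside their models. Which start the uterus uses is not known from these data, so the Tenm3 window shown may not be the promoter in use there.

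Tenm3 was lower in every HSD17B1TG mouse than in any WT mouse, and it was the only gene of the 9 tested that was called. A gene was called when its adjusted p-value was under 0.05, it changed more than 2-fold and it had a mean above 1 FPKM (fragments per length of gene and depth of library) in at least 1 group. The gene is ENSMUSG00000031561 in the table. The protein binds latrophilins and, in the brain, sorts axons by attraction between cells that both carry it. Tenm3 was at 0.472, 0.663, 0.343, 0.563 and 0.377 FPKM in TG1 to TG5, and at 3.85, 5.30, 8.001, 1.40 and 7.82 FPKM in WT1 to WT5. All 5 HSD17B1TG mice lay below the lowest WT mouse, WT4. The counts behind these levels were 60 to 118 in HSD17B1TG and 295 to 1640 in WT. The mean level was 0.483 ± 0.132 FPKM in HSD17B1TG and 5.27 ± 2.78 in WT (SD, n = 5), 10.9-fold lower in HSD17B1TG. In edgeR the log2 fold change was -3.45 (SE 0.45). Of all 16993 genes tested, 2.08% were called lower and 2.16% higher in HSD17B1TG, and in 2.65% the groups did not overlap with HSD17B1TG lower. Among 17697 protein-coding genes, 56.4% had a lower mean than Tenm3 in WT and 25.2% in HSD17B1TG. Tenm3 shares 114 bases of exon with Gm19744 on the other strand, which had up to 82 counts in a mouse and means of 0.0273 FPKM in HSD17B1TG and 0.241 in WT. The part of this overlap was not tested. The WT mice spread 5.73-fold from lowest to highest and the HSD17B1TG mice 1.93-fold.

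**Figure D1:**
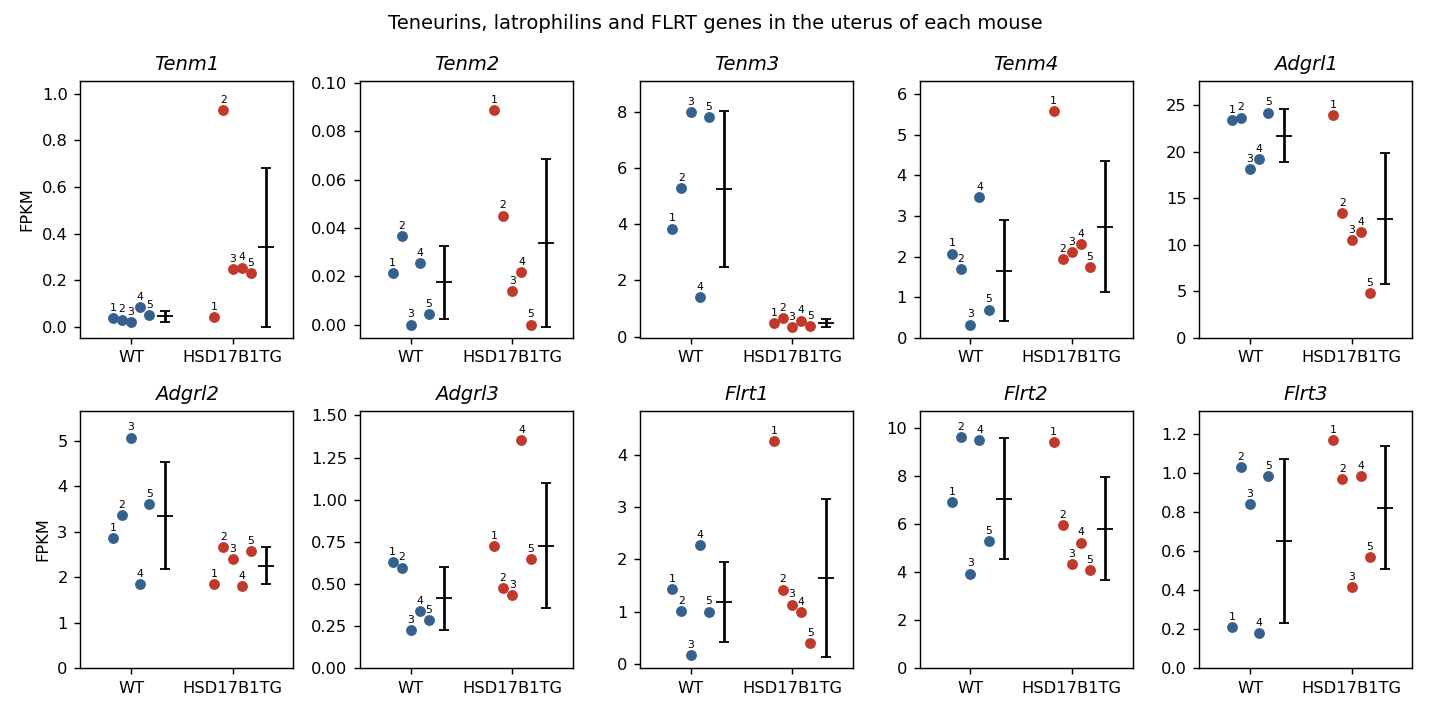
Level of each gene in FPKM (vertical axes, linear and different for each gene) in 5 WT mice (blue) and 5 HSD17B1TG mice (red), each point 1 mouse with its number. Black lines are the mean and SD, and Tenm3 is the gene whose HSD17B1TG mice (0.343 to 0.663 FPKM) all lie below its WT mice (1.40 to 8.001 FPKM).

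Tenm1 (chromosome X, 42527866 to 43429126, minus strand, GRCm38 as in the table) was near the limit of detection in WT and higher in 4 of the 5 HSD17B1TG mice. Its levels were 0.0423, 0.930, 0.249, 0.255 and 0.232 FPKM in TG1 to TG5 and 0.0390, 0.0326, 0.0210, 0.0846 and 0.0523 FPKM in WT1 to WT5. The WT counts were 6 to 31 and the HSD17B1TG counts 14 to 287. TG1 lay within the WT mice, and the other four HSD17B1TG mice lay above all of them. The log2 fold change was 2.88 (SE 0.71), and 2.06 without TG2, the highest mouse. The mean stayed under 1 FPKM in both groups, so Tenm1 was not called. It shares 1465 bases of exon with Sh2d1a on the other strand, which had up to 29 counts in a mouse. The strand setting of the counting is not given in the sources used here, and the part of such overlaps in the counts was not tested.

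Tenm4, which is known for its part in myelination and in early mesoderm, was the teneurin of highest level in every HSD17B1TG mouse and in WT4. Its levels were 5.60, 1.94, 2.10, 2.30 and 1.74 FPKM in TG1 to TG5 and 2.08, 1.68, 0.324, 3.47 and 0.694 FPKM in WT1 to WT5. TG1 was the highest of all mice, and the other HSD17B1TG mice lay within the WT range. The log2 fold change was 0.73 (SE 0.56), 0.29 without TG1 and 1.19 without WT4. Tenm2 was barely detected, with 0 to 19 counts in HSD17B1TG and 0 to 8 in WT, and it was filtered out before the test. The counts of 0 in TG5 and WT3 allow up to 0.165 and 0.202 CPM.

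The make-up of the family differed between the groups more than its sum did. The 4 teneurins summed to 2.34 to 6.20 FPKM in HSD17B1TG and to 4.97 to 8.57 FPKM in WT, and the groups overlapped through TG1. Tenm3 made up 7.61%, 18.5%, 12.7%, 17.9% and 16.1% of the family in TG1 to TG5. In WT1 to WT5 it made up 64.3%, 75.1%, 95.9%, 28.1% and 91.2%. Tenm4 made up 54.2% to 90.3% in HSD17B1TG and 3.89% to 69.7% in WT, where WT4 was the mouse with the highest share. The ratio of Tenm3 to Tenm4 was at most 0.342 in HSD17B1TG and at least 0.402 in WT. These shares contain the Tenm3 level itself and are not further evidence of its difference.

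**Figure D2:**
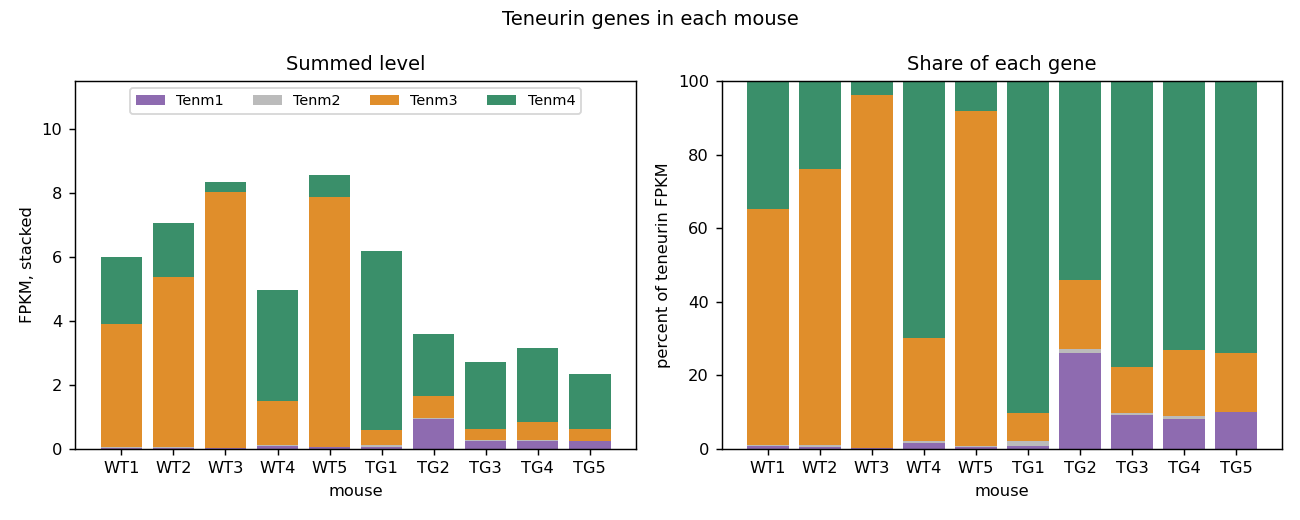
Teneurin genes in each mouse, as stacked FPKM on the left and as percent of the summed teneurin FPKM on the right, with 1 bar per mouse and WT first. Tenm3 (orange) fills 28.1% to 95.9% of the WT bars and 7.61% to 18.5% of the HSD17B1TG bars.

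Among the latrophilins, Adgrl1 was by far the most abundant, and 4 of 5 HSD17B1TG mice lay below all WT mice. Its levels were 23.9, 13.4, 10.5, 11.3 and 4.77 FPKM in TG1 to TG5 and 23.4, 23.7, 18.1, 19.2 and 24.2 FPKM in WT1 to WT5. TG1 lay at the WT level. The mean was 12.8 ± 7.01 FPKM in HSD17B1TG and 21.7 ± 2.85 in WT (SD, n = 5). The gene lies on chromosome 8 at 83900105 to 83941954, plus strand. The log2 fold change was -0.77 (SE 0.33) and did not meet the thresholds. Without TG1 it was -1.12 and was called. Adgrl1 shares 1107 bases of exon with Gm10644 on the other strand, which had up to 29 counts in a mouse.

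Adgrl2 and Adgrl3 did not separate the groups. Adgrl2, a latrophilin that is widely found outside the nervous system, was at 1.85, 2.67, 2.40, 1.80 and 2.57 FPKM in TG1 to TG5 and at 2.86, 3.36, 5.07, 1.86 and 3.61 FPKM in WT1 to WT5, with a log2 fold change of -0.58 (SE 0.25). TG1 and TG4 lay just below WT4, the lowest WT mouse. Adgrl3, the latrophilin with the lowest level, was at 0.725, 0.476, 0.434, 1.36 and 0.644 FPKM in TG1 to TG5 and at 0.628, 0.596, 0.224, 0.336 and 0.283 FPKM in WT1 to WT5. TG1, TG4 and TG5 lay above all WT mice, and the log2 fold change was 0.81 (SE 0.39). The latrophilins summed to 7.99 to 26.5 FPKM in HSD17B1TG and 21.3 to 28.1 FPKM in WT. Adgrl1 made up 59.7% to 90.3% of that sum in HSD17B1TG and 77.3% to 89.7% in WT.

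The FLRT genes overlapped between the groups, and none met the thresholds. Flrt2, which guides migrating neurons away through UNC5D, was the most abundant, at 9.41, 5.96, 4.32, 5.23 and 4.09 FPKM in TG1 to TG5 and at 6.92, 9.62, 3.94, 9.51 and 5.31 FPKM in WT1 to WT5, with a log2 fold change of -0.29 (SE 0.29). Flrt1 was at 4.28, 1.42, 1.13, 0.995 and 0.395 FPKM in TG1 to TG5 and at 1.43, 1.02, 0.169, 2.27 and 1.00 FPKM in WT1 to WT5. Its log2 fold change was 0.48 (SE 0.68) and was -0.25 without TG1 and 0.85 without WT4. Flrt3, which binds latrophilins and UNC5B, was at 1.17, 0.969, 0.415, 0.982 and 0.568 FPKM in TG1 to TG5 and at 0.209, 1.03, 0.841, 0.179 and 0.984 FPKM in WT1 to WT5. In the GENCODE annotation Flrt1 lies within Macrod1 and Flrt3 within Macrod2, each on the other strand and with no shared exon. WT1 and WT4 were the low Flrt3 mice, and the log2 fold change was 0.33 (SE 0.54). Flrt2 made up 63.3% to 80.9% of the FLRT sum in HSD17B1TG and 72.8% to 82.5% in WT.

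By mean FPKM, which is per length, the order in WT was Adgrl1, Flrt2, Tenm3, Adgrl2, Tenm4, Flrt1, Flrt3, Adgrl3, Tenm1 and Tenm2. Neighbours in this order had separate ranges only between Adgrl1 and Flrt2 and between Adgrl3 and Tenm1. In HSD17B1TG the order was Adgrl1, Flrt2, Tenm4, Adgrl2, Flrt1, Flrt3, Adgrl3, Tenm3, Tenm1 and Tenm2, and every pair of neighbours overlapped. Tenm3 thus stood above Adgrl2 in WT and below Adgrl3 in HSD17B1TG. The extremes often fell on the same mice: TG1 was the highest HSD17B1TG mouse for 6 of the 10 genes, and WT3 the lowest WT mouse for 7 of the 10.

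The level of Tenm3 was set beside uterine and cell type markers, since in whole tissue fewer cells of a type and less RNA per cell cannot be told apart. Of the 6 genes of the uterine list, 4 were called lower in HSD17B1TG, against 2.08% of all genes, namely Hand2, Msx1, Hoxa10 and Hoxa11, and Esr1 and Pgr were not called. The 4 encode transcription factors of the uterine wall and were put together here because they were called. With 1 mouse left out the count was 0 without TG5, 1 without TG2, TG4 or WT2, 2 without WT3 or WT5, and 4 otherwise. Over all genes, 354 were called lower with all mice. This became 27 without TG5, 60 without TG2, 66 without TG4, 56 without WT2, 78 without WT3 and 62 without WT5. With any other mouse left out it was 145 to 666. At least 4 of the 6 uterine genes had an unadjusted p-value under 0.05 in edgeR each time. How many of all genes had such a p-value was not counted, so this and later counts at that limit have no background. The sum of Hand2, Msx1, Hoxa10 and Hoxa11 was 96.3, 51.5, 46.2, 60.4 and 46.7 FPKM in TG1 to TG5. In WT1 to WT5 it was 172, 380, 435, 101 and 386 FPKM. The 5 WT mice had the same order for this sum as for Tenm3. Per 100 FPKM of the sum, Tenm3 was at 0.490 to 1.29 FPKM in HSD17B1TG and at 1.39 to 2.23 in WT, and the medians differed 2.28-fold. The part of these genes in the Tenm3 result was not tested.

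Of 10 stromal markers, 4 were called lower, against 2.08% of all genes, namely Col3a1, Hoxa11, Pdgfra and Thy1, with Hoxa11 also in the uterine list. The other 6 were not called, 2 of the 10 had a log2 fold change above 0, and the median of the list was -1.06. With 1 mouse left out the stromal count was 0 without TG2, TG5 or WT5, and 1 without TG4, WT2 or WT3. It was 2 without TG3 or WT1, 4 without WT4 and 5 without TG1. Each of these fits had 5 or 6 stromal markers under an unadjusted 0.05 in edgeR. Over all genes, 354 were called lower with all mice. This became 60, 27 and 62 without TG2, TG5 and WT5, and 66, 56 and 78 without TG4, WT2 and WT3. It was 528, 145, 666 and 575 without TG3, WT1, WT4 and TG1. The stromal sum was 2450 FPKM in TG1, 689 to 1420 in the other HSD17B1TG mice and 2018 to 2770 in WT. TG1 had a stromal sum within the WT range. Of the 10 markers in TG1, 3 lay below all WT mice (Pdgfra, Col1a1 and Col3a1), 4 within them and 3 above all of them (Dcn, Lum and Col6a3). Per 1000 FPKM of the stromal sum, Tenm3 was at 0.192 to 0.546 FPKM in HSD17B1TG and at 0.604 to 3.48 in WT. The sum of 10 epithelial markers was 708 FPKM in TG1, within the WT range of 406 to 1683. In the other HSD17B1TG mice it was 2006 to 3358 FPKM, above all WT mice. The sums of 10 endothelial markers (29.8 to 111 FPKM in HSD17B1TG, 69.7 to 177 in WT) and 6 pericyte markers (23.8 to 59.0 and 47.7 to 111) overlapped between the groups. In edgeR 0 genes of these 3 lists were called, with 8, 4 and 2 at an unadjusted p-value under 0.05. DESeq2 called 4 epithelial markers higher, and 2 endothelial and 1 pericyte marker lower, and limma voom called 0. Without TG1, edgeR called 5 epithelial markers higher, and 2 endothelial and 1 pericyte marker lower. Without WT4 these counts were 6, 2 and 2. The part of these cells in the results was not tested.

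**Figure D3:**
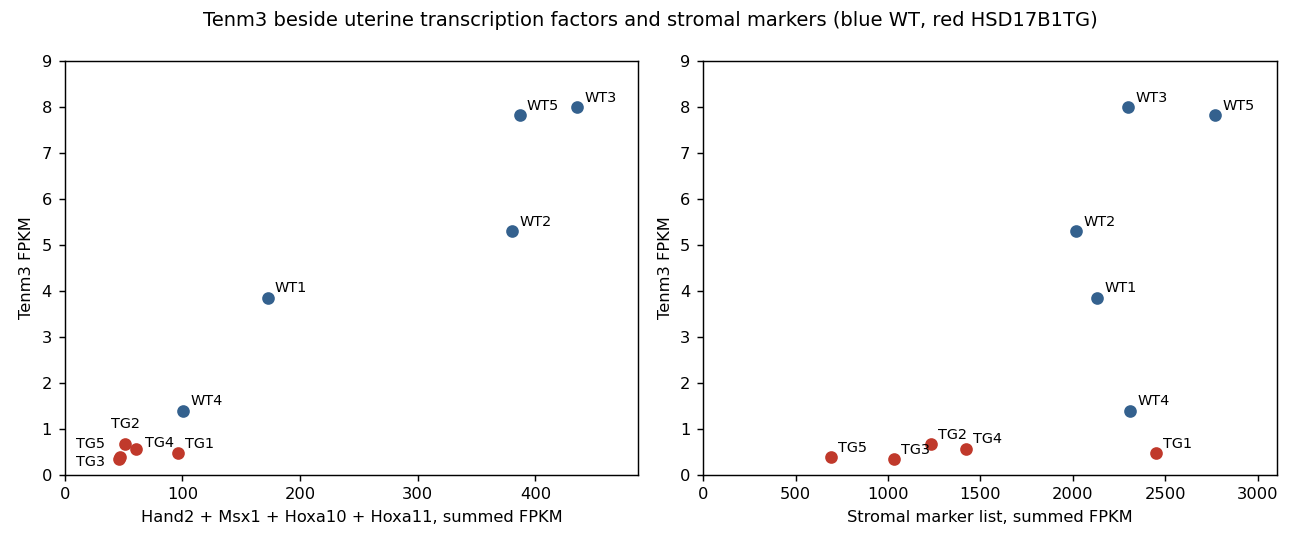
Tenm3 in FPKM (vertical axis) beside the summed FPKM of Hand2, Msx1, Hoxa10 and Hoxa11 on the left and of 10 stromal markers on the right (horizontal axes), with 1 point per mouse, blue for WT and red for HSD17B1TG. The HSD17B1TG mice lie below the WT mice in Tenm3 and in the sum on the left. The 4 genes on the left were put together because they were called lower in HSD17B1TG. On the right TG1 (2450 FPKM) lies within the WT mice, with 3 of the 10 markers below all WT mice, 4 within them and 3 above.

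Tenm4 and Flrt1 were highest in the mice with most smooth muscle RNA, TG1 and WT4, and lowest in WT3, with the least. Of 10 smooth muscle markers 0 were called in edgeR, DESeq2 or limma voom, and 0 had an unadjusted p-value under 0.05 in any of them. In edgeR without WT4, 0 were called and 5 had an unadjusted p-value under 0.05. All 10 had a log2 fold change above 0 in edgeR, with a median of 0.58, and their sums overlapped (879 to 7427 FPKM in HSD17B1TG and 425 to 5831 in WT). Per 1000 FPKM of the smooth muscle sum, Flrt1 lay at 0.318 to 0.631 FPKM in HSD17B1TG and at 0.390 to 1.94 in WT, and Tenm4 at 0.736 to 1.97 and 0.332 to 3.22. The part of smooth muscle in their levels was not tested.

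The genes whose profile was most like that of a teneurin or FLRT gene were looked up among 14314 protein-coding genes tested, by the root mean square difference of centred log2 CPM over the 10 mice. This was done for the 4 genes with an SD over 1 on that scale. For Tenm3 they included Lyz1 (0.43), D630045J12Rik (0.49) and Fmo1 (0.50), and the counts of Lyz1 are uncertain because of its near copy Lyz2. Fmo1 encodes a flavin monooxygenase, and these 3 genes were called lower in HSD17B1TG, which follows from their choice by likeness to Tenm3 over both groups. For Flrt1 they were Myom1, Mrvi1, Kcnh2 and Adcy5 (0.42 to 0.49), of which Myom1 encodes a muscle M-band protein and Kcnh2 a potassium channel. For Tenm4 they were Nlrp3, Tbc1d1, Myo1h and Hoxc5 (0.32 to 0.44). For Tenm1 the nearest were less near, Pmel, Acp5, Zan and Gpd1 (0.58 to 0.69).

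Among genes for binding partners, Unc5b was higher in HSD17B1TG. It lies on chromosome 10 at 60762593 to 60831581, minus strand, and encodes a netrin receptor that FLRT3 also binds. The list held 25 genes for UNC5 receptors, netrins, FGF receptors, neurexins, SHANK scaffolds and others, of which 18 were tested. This list and that of the other adhesion receptors were chosen with earlier results of these data known. The adjusted p-values of their genes are therefore given as a description. Unc5b was at 2.63, 2.17, 2.68, 4.54 and 3.93 FPKM in TG1 to TG5 and at 1.74, 1.13, 0.812, 1.35 and 1.03 FPKM in WT1 to WT5, with no overlap. In 4.04% of all genes tested the groups did not overlap with HSD17B1TG higher. The mean was 3.19 ± 0.998 FPKM in HSD17B1TG and 1.21 ± 0.353 in WT (SD, n = 5), and the log2 fold change was 1.39 (SE 0.27), with an adjusted p-value of 0.0246 in edgeR after Benjamini-Hochberg adjustment. The call was kept in 5 of 10 fits that left out 1 mouse and lost without TG4, TG5, WT2, WT3 or WT5. Over all genes, 367 were called higher with all mice. This became 38 to 83 in the fits that lost the call and 55 to 888 in those that kept it.

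The Unc5b level relative to Flrt2 was 0.280 to 0.962 in HSD17B1TG and 0.117 to 0.252 in WT. Unc5c was at 0.0250 to 0.0617 FPKM in HSD17B1TG and 0.0531 to 0.259 in WT, with a log2 fold change of -2.20 (SE 0.45) and an adjusted p-value of 0.0268 in edgeR, but its mean was under 1 FPKM in both groups. Shank2, a scaffold that binds latrophilins, was at 0.242 to 0.390 FPKM in HSD17B1TG and 0.310 to 1.48 in WT, with a log2 fold change of -1.64 (SE 0.41) and an adjusted p-value of 0.0437 in edgeR, also with means under 1 FPKM. Shank2 was called lower without WT4. Over the 18 partners the median log2 fold change was 0.03, beside 0.002 over all genes.

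**Figure D4:**
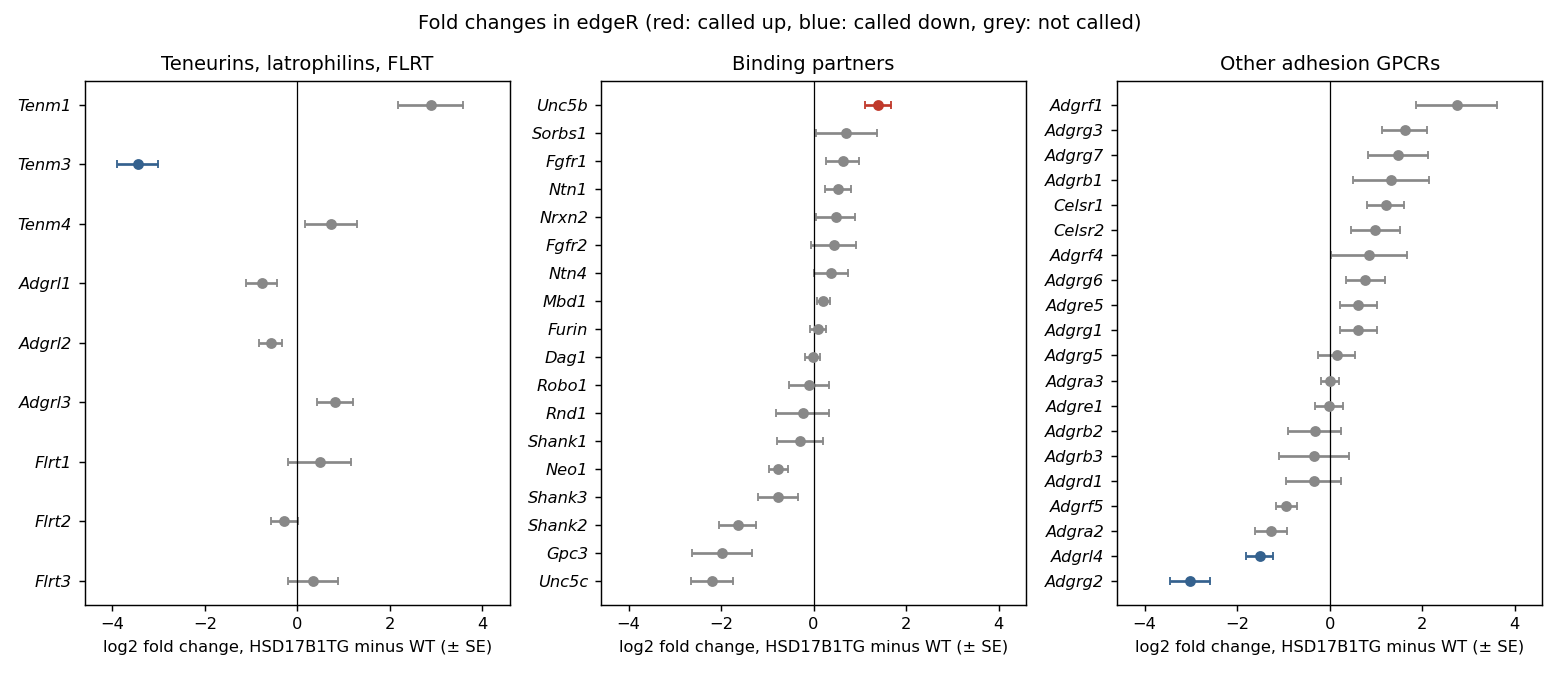
Log2 fold change of HSD17B1TG minus WT in edgeR (horizontal axes, points with bars of 1 SE) for the 9 tested teneurin, latrophilin and FLRT genes, 18 tested binding partners and 20 tested other adhesion receptors. Red marks a gene called higher and blue one called lower, which were Unc5b, and Tenm3, Adgrl4 and Adgrg2.

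Among other adhesion G protein-coupled receptors, the wider family of the latrophilins, Adgrg2 and Adgrl4 fell. Of 27 listed genes 20 were tested, and 2 were called lower, against 2.08% of all genes. Adgrg2, a receptor best known from the epididymis, was at 0.864, 0.915, 0.403, 0.670 and 0.487 FPKM in TG1 to TG5 and at 8.93, 4.73, 5.55, 1.67 and 6.23 FPKM in WT1 to WT5, with no overlap. Its log2 fold change was -3.02 (SE 0.42), with an adjusted p-value of 0.0153 in edgeR, and it was called in all 10 fits that left out 1 mouse. Adgrg2 lies on chromosome X at 160390690 to 160498070, plus strand. WT4 was the lowest WT mouse for Adgrg2, as for Tenm3.

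Adgrl4, a receptor of endothelial cells that is named with the latrophilins by sequence, was at 4.63, 3.47, 2.10, 3.84 and 2.33 FPKM in TG1 to TG5 and at 8.72, 8.01, 12.3, 5.04 and 12.4 FPKM in WT1 to WT5. Its log2 fold change was -1.51 (SE 0.30), with an adjusted p-value of 0.0255 in edgeR, and the call was kept in 4 of 10 fits that left out 1 mouse. It was lost without TG2, TG4, TG5, WT2, WT3 or WT5. Over all genes, 354 were called lower with all mice. This became 27 to 78 in the fits that lost the call and 145 to 666 in those that kept it. Per 100 FPKM of the endothelial sum, Adgrl4 was at 4.18 to 7.79 FPKM in HSD17B1TG and 6.97 to 10.6 in WT, which overlapped. The part of endothelial RNA in its fall was not tested. Adgrf5, a receptor of lung and vessel cells, was at 2.72 to 4.94 FPKM in HSD17B1TG and 5.40 to 9.47 in WT, with a log2 fold change of -0.94 (SE 0.23) and an adjusted p-value of 0.0436 in edgeR. Its fold change was under 2, so it was not called, but it was called lower without TG1 and without WT4. Over the 20 receptors the median log2 fold change was 0.39, and 12 of them were above 0.

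The receptors for the ovarian hormones gave the background to these levels. Esr1, the estrogen receptor, had a log2 fold change of -0.05 (SE 0.17). Pgr, the progesterone receptor, was at 29.8 ± 17.4 FPKM in HSD17B1TG and 48.2 ± 18.1 in WT (SD, n = 5), with a log2 fold change of -0.70 (SE 0.40) and an adjusted p-value of 0.298 in edgeR, so it was not called.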

How the data were processed

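RNA of the uterus of 5 HSD17B1TG and 5 WT mice was sequenced in paired-end reads of 150 bp, mapped with HISAT2 2.0.5 and annotated with Ensembl 94 (GRCm38). The authors deposited raw counts per gene, and the deposited FPKM are those counts per gene length, scaled by size factor in place of each mouse's own total. How reads were counted, and whether by strand, is not given in the sources used here. Columns with the authors' fold changes and p-values were not used. Mice were grouped by the labelled genotype. No label shows that the mice are of separate litters or batches, so the p-values measure the spread between these mice.

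Counts were tested in edgeR 4.0.16 (R 4.3.3), with filterByExpr, TMM, the quasi-likelihood test and Benjamini-Hochberg adjustment over 16993 genes. Alternatives were DESeq2 1.42.0, limma 3.58.1 (voom, and log2(FPKM + 1) or log2(FPKM + 0.1)), RLE normalization, no filter on low counts, the adjusted p-value alone and each mouse left out. On simulated data with 200 changed genes, edgeR called 131 of 16670 genes, of which 128 were changed ones, and DESeq2 called 198, of which 159 were. With no change simulated, edgeR called 0 genes, limma voom 0 and DESeq2 17. The simulation changed only genes of higher mean count, and its FPKM threshold did not act. Counts were drawn independently, with no mouse that stood apart. It therefore cannot show how calls behave with mice such as TG1 and WT4. Log2 CPM used a prior count of 2. The genes and lists were chosen with earlier results of these data known. The genes named are the 10 in every mouse, each called gene and the 3 smallest p-values among partners and receptors, the 4 nearest profiles, Esr1 and Pgr. Called genes of the marker lists were named after their values were seen. Some results that these rules would name are not reported here. Sequences are from RefSeq (GRCm38.p6), where 9 of the 10 genes matched by symbol.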

Additional observations from a re-analysis of the deposited data

Results flagged for a closer look

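Tenm4 in TG1 stood apart from the other HSD17B1TG mice in log2 CPM, with a gap to the nearest mouse of 0.758 of the group's range against a critical value of 0.71 for 5 mice. Its level was 5.60 FPKM in TG1 and 1.74 to 2.30 FPKM in the other HSD17B1TG mice. It was the single case in 18 groups tested (9 genes in each genotype), and chance flags about 1 in 20. The smooth muscle sum of TG1 was also the highest of its group, and its part in this level was not tested.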

How the results depend on the processing

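Tenm3 was called lower in all 10 fits that left out 1 mouse and in all 7 other settings, with log2 fold changes in the fits on counts from -3.70 without WT4 to -3.23 in limma voom. The number of the 9 tested teneurin, latrophilin and FLRT genes called was 1, with 2 by the adjusted p-value alone, where Tenm1 was added, and 1 to 2 in the fits that left out 1 mouse, where Adgrl1 was added without TG1. Flrt1 alone changed the sign of its log2 fold change. The 1 partner called, higher, became 2 in DESeq2 (1 lower), 3 by the adjusted p-value alone (2 lower) and 0 in limma on log2(FPKM + 1), where 5 had an unadjusted p-value under 0.05. It became 0 to 3 with 1 mouse left out. It was 0 without TG4, TG5, WT2, WT3 or WT5, with 5 to 6 under an unadjusted 0.05 in edgeR, and 3 without WT4 (2 lower). The 2 receptors called, both lower, became 6 in DESeq2 (3 higher, 3 lower), 3 in limma voom (1 higher) and 4 in both fits on log2 FPKM (1 higher in each). They became 1 to 7 with 1 mouse left out, with 7 without WT4 (3 higher), 5 without TG1 (1 higher) and 1 without TG2, TG4, TG5, WT2, WT3 or WT5. Over all genes, 367 were called higher and 354 lower. This became 923 and 674 in DESeq2, 391 and 189 in limma voom, 416 and 228 in limma on log2(FPKM + 1), 568 and 478 by the adjusted p-value alone, 888 and 666 without WT4, and 763 and 575 without TG1. With any other mouse left out, 38 to 367 were called higher and 27 to 528 lower, with the lowest counts without TG5. The cause was not tested. No paired analysis was possible because the labels give no replicate numbers. Of the numbers that end the mouse names, the groups share only the number 10, in TG1 and WT4. These are the mice that stood apart in smooth muscle RNA. What the number means is not given in the sources used here. Depth limits Tenm2, with 0 to 19 counts per mouse, and Tenm1 in WT, with 6 to 31.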
